A study of Mus musculus with 23 samples.

Results

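The SLC25 genes encode the mitochondrial carriers, membrane proteins that exchange metabolites, nucleotides, cofactors and ions between the mitochondrial matrix and the cytosol. They were taken here as every gene of the count tables whose symbol is Slc25a followed by a number. This gave 39 of the 12831 genes measured in quadriceps and 47 of the 16962 measured in epididymal fat, 47 carriers in all. The 39 muscle carriers were also in the fat table, and the 8 measured in fat alone were Slc25a2, Slc25a18, Slc25a21, Slc25a31, Slc25a41, Slc25a43, Slc25a48 and Slc25a54. The filter on low counts removed no gene of either table, so it removed no carrier. Whether genes with low counts were dropped before deposit is not given in the sources used here. Absence from the muscle table therefore does not show absence from muscle.

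RNA of the quadriceps muscle was sequenced from 3 no tumor mice and from 4 mice each of the KPC and KPC IL6KO groups, and RNA of an epididymal fat pad from 4 other mice per group, giving 23 libraries of 1 mouse each. The mice were C57BL/6J males operated on at 8 weeks of age. No tumor mice had sham surgery without tumor cells. KPC mice had cells of a pancreatic tumor line injected into the pancreas, the line having come from a pancreatic tumor of a genetically engineered male mouse with Cre under the Pdx1 promoter, which is active in the pancreas. The KPC line was a single clone that had received a plasmid with a null guide RNA, and KPC IL6KO a single clone of the same line in which Il6, the gene of the cytokine interleukin-6, was edited by CRISPR/Cas9. The mice themselves were not edited, and a difference between the clones cannot be told apart from one due to Il6. The authors report larger tumors in KPC than in KPC IL6KO mice, and the part of tumor size was not tested. All mice were euthanized together once the KPC group showed wasting. The comparison of the 3 groups asks how a tumor, and the tumor cells' own IL-6, bear on muscle and fat. Muscle and fat came from separate mice and separate sequencing, so tissues are compared only through the changes within each.

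Carriers share a repeated fold and differ in what they move. Nucleotide carriers, led by the ADP/ATP translocases, pass ATP out of the matrix. Others bring in phosphate, coenzymes, iron and amino acids, or exchange citrate, malate and related acids between matrix and cytosol, and the aspartate and oxoglutarate carriers work in the malate-aspartate shuttle that moves reducing equivalents into mitochondria. Skeletal muscle is rich in the adenine nucleotide translocase ANT1, whereas lipid-synthesizing adipocytes use the citrate carrier to export acetyl units.

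Total counts ranged from 19259763 to 74907810 per library in muscle and from 26306377 to 56308545 in fat. A level of 3 counts, taken as the limit of detection for counting error only, corresponded to 0.0462 to 0.154 CPM (counts per 1000000 of a library size normalized by TMM) in muscle and 0.0474 to 0.123 CPM in fat. The spread between mice of a group, as the biological coefficient of variation over all genes, was 22.7% in muscle and 63.5% in fat. In muscle the summed level of 7 muscle fiber markers was 140187 to 173130 CPM in no tumor, 110606 to 127131 CPM in KPC and 161003 to 175374 CPM in KPC IL6KO. In such bulk samples fewer cells of a type and less RNA per cell cannot be told apart. The summed level of 5 macrophage markers overlapped between the muscle groups. Neutrophil markers (4 measured) read 0.359 to 0.779 CPM in no tumor, 4.497 to 21.8 CPM in KPC and 2.14 to 4.13 CPM in KPC IL6KO, and their part in the results below was not tested. In the pads, labelled epididymal fat, 8 markers of epididymis epithelium summed to 735 to 82306 CPM, against 916 to 17184 CPM for 5 adipocyte markers. The epididymis sum exceeded the adipocyte sum in 10 of 12 pads, so the pads held RNA of another tissue in varying amounts.

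Per kilobase of exon, quadriceps carrier RNA was dominated by Slc25a4, which encodes ANT1. Its level in no tumor muscle was 1741 ± 116 CPM per kb (SD, n = 3), 74.8% of the sum over the 39 carriers, and no other carrier came near it. Slc25a11, the oxoglutarate carrier, followed at 135 ± 10.2 CPM per kb and Slc25a3, the phosphate carrier, at 128 ± 5.17 CPM per kb, and these neighbors in the order overlapped. Slc25a12, the aspartate-glutamate carrier aralar, stood below them at 60.1 ± 2.58 CPM per kb. In fat the order was different and flatter. Slc25a5, which encodes ANT2, led with 159 ± 24.3 CPM per kb (SD, n = 4), 20.1% of the sum over 47 carriers. Slc25a4 followed at 94.2 ± 20.1 CPM per kb, the citrate carrier Slc25a1 at 62.7 ± 30.2 and Slc25a11 at 57.8 ± 28.8, and the values of neighbors from Slc25a4 down to Slc25a3, at rank 7, overlapped. Carriers together took 0.650% to 0.770% of the total counts of no tumor muscle and 0.335% to 0.517% in KPC. The range was 0.626% to 0.736% in KPC IL6KO, so the KPC libraries lay apart from both other groups. Much of this gap was Slc25a4, which averaged 4097 CPM in no tumor mice against 2074 CPM in KPC mice. The shares were not TMM-normalized, which widened the gap, as TMM factors were 0.867 to 0.981 in KPC and 1.01 to 1.12 elsewhere.

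In KPC quadriceps the carriers split in both directions. Relative to no tumor, 10 of 39 carriers were called up and 13 down, by edgeR's quasi-likelihood test at a Benjamini-Hochberg false discovery rate (FDR) over all 12831 genes of at most 0.05 and a fold change (FC) of at least 1.5. The shares of all muscle genes so called were 26.7% up and 29% down and lay close to those of the carriers. Counting instead the carriers without any overlap between these groups gave 10 higher in KPC and 14 lower, against 32.3% and 33% of all genes. The median log2 FC was -0.018 over the carriers and -0.034 over all genes. The calls went up for Slc25a28, Slc25a33, Slc25a34, Slc25a44, Slc25a38, Slc25a46, Slc25a22, Slc25a53, Slc25a32 and Slc25a17. Those that went down included Slc25a10, Slc25a35, Slc25a1, Slc25a15, Slc25a23, Slc25a42, Slc25a37, Slc25a24, Slc25a40, Slc25a4, Slc25a11 and Slc25a45. Of these 23 calls, 18 held under each of 19 alternative settings. The exceptions were Slc25a45, lost under 14 alternatives, Slc25a53 under 7 of the 18 that could be run for it, Slc25a22 under 5, Slc25a17 under 2 and Slc25a32 under 1.

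**Figure D1:**
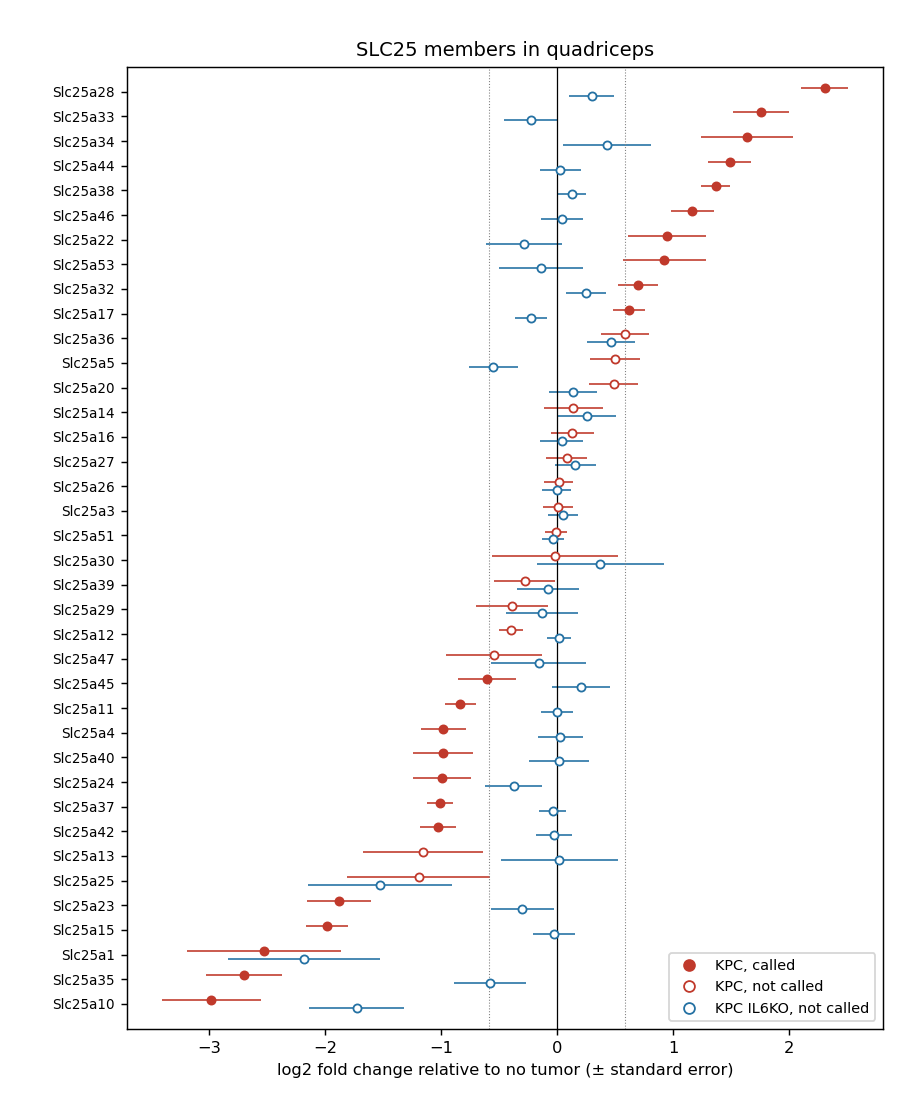
Log2 FC relative to no tumor with its standard error for 38 of the 39 carriers of quadriceps, in KPC (red) and KPC IL6KO (blue), ordered by the KPC value; filled points were called and dotted lines mark an FC of 1.5. KPC values run from 2.31 for Slc25a28 to -2.98 for Slc25a10, and no KPC IL6KO point was called.

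The promoters of 4 carriers are shown because these genes carry the result: Slc25a28 and Slc25a33 had the largest rises, Slc25a15 had the smallest standard error among the 4 largest falls, and Slc25a4 is the most abundant carrier. Each runs 5′ to 3′ from 250 bases before to 50 bases after the gene's start, as RefSeq places it on GRCm38.p6, and capitals mark the E-box CACGTG, a site bound by factors such as Myc and USF.
Slc25a28, chr19:43674832-43675131, minus strand: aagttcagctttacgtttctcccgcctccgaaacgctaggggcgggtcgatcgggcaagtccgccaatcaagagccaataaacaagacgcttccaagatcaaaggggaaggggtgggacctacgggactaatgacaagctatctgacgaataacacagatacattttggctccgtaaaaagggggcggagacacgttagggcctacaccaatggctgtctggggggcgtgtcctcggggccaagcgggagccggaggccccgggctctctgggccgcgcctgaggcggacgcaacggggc
Slc25a33, chr4:149774218-149774517, minus strand: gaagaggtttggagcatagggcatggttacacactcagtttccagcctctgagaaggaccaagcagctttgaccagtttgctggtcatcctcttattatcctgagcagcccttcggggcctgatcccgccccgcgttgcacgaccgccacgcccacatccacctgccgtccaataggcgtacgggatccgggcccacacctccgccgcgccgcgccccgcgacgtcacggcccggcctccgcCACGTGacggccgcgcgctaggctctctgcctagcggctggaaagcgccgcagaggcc
Slc25a15, chr8:22398228-22398527, minus strand: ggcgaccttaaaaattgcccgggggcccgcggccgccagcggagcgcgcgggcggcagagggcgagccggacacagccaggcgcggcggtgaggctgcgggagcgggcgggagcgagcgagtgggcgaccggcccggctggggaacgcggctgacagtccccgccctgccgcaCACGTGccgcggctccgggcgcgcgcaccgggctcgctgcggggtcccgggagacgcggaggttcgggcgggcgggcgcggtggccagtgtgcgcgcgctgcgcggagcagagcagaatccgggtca
Slc25a4, chr8:46211013-46211312, minus strand: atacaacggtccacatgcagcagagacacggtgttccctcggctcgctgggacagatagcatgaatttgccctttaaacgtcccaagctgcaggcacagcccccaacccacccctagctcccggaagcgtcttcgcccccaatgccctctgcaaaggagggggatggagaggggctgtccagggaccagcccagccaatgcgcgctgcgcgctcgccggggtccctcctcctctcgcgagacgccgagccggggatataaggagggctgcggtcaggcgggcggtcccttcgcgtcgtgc
An E-box began 8 bases before the start of Slc25a33 and 77 bases before this start of Slc25a15, the other listed start of that gene having none. In GENCODE M21 on the same build the genes spanned chr19:43663801-43674881 (Slc25a28), chr4:149744036-149774277 (Slc25a33), chr8:22375551-22398597 (Slc25a15) and chr8:46206797-46211284 (Slc25a4), all on the minus strand. The whole window shown for Slc25a15, with its E-box, lies inside that GENCODE span, downstream of the gene's 5′ end there. Exons of Slc25a10, Slc25a11, Slc25a23, Slc25a25, Slc25a26, Slc25a33, Slc25a35, Slc25a37 and Slc25a46, and of the fat carriers Slc25a18 and Slc25a21, overlap an exon on the opposite strand, and whether the counting used strand is not given in the sources used here. Of the 47 carriers, 36 matched an entry, with 46 promoters in all. Both strands of each were searched for 5 motifs. The E-box was in 8 of 46 (17.4%), of 7 carriers, against 7.15% of the 32851 mouse promoters of the same length. The Slc25a14 windows chrX:48623198-48623497 and chrX:48623328-48623627 overlap and hold the same E-box, which was counted in each. The STAT motif TTCNNNGAA, recognized by the factors that IL-6 receptors activate, was in 2 of 46 (4.35%), those of Slc25a36 and Slc25a54, against 8.30% of all. The C/EBP motif TTGCNNAA was in 3 of 46 (6.52%), of Slc25a12 and Slc25a25, against 10.8% of all. The FoxO motif GTAAACA and the ERR motif TCAAGGTCA were in 0 of 46, against 3.65% and 0.423%. None of the 5 motifs was in the windows shown for Slc25a28 and Slc25a4, which says only that these letters are not in those 300 bases.

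Among the carriers of iron and of substrates for heme, the 2 mitoferrins moved in opposite directions. Mitoferrins bring iron into the matrix for heme and iron-sulfur clusters, mitoferrin-1 (Slc25a37) mainly in erythroid cells and mitoferrin-2 (Slc25a28) broadly. Slc25a28 measured 24.3, 28.5 and 26.2 CPM in no tumor, 145, 93.5, 110.1 and 173 CPM in KPC and 27.9, 31.2, 37.9 and 32.5 CPM in KPC IL6KO. Each KPC mouse lay above every mouse of the other groups, and the rise was 4.95-fold (log2 FC 2.31, SE 0.21, edgeR FDR 4.05e-06). Slc25a37 measured 23.9, 24.9 and 27.2 CPM in no tumor, 14.7, 12.7, 10.5 and 12.2 CPM in KPC and 25.1, 24.8, 24.4 and 24.2 CPM in KPC IL6KO. All 4 KPC values were below all others, a 2.02-fold fall (log2 FC -1.01, SE 0.11, edgeR FDR 1.69e-05). Per kilobase, mitoferrin-2 made up 94.1% ± 1.48 (SD, n = 4) of the pair in KPC muscle, against 62.5% ± 2.04 (n = 3) in no tumor and 67.7% ± 3.03 (n = 4) in KPC IL6KO.

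Slc25a38, the carrier that supplies mitochondrial glycine for the first step of heme synthesis, measured 16.7, 18.9 and 14.8 CPM in no tumor, 47.3, 36.3, 44.4 and 45.8 CPM in KPC and 16.6, 19.4, 19.97 and 17.6 CPM in KPC IL6KO. All 4 KPC mice lay above the rest (log2 FC 1.37, SE 0.13, edgeR FDR 5.55e-06). Alas2, the erythroid enzyme of that step and the single erythroid marker measured in muscle, also rose (log2 FC 2.41, SE 0.40, edgeR FDR 0.000245), with 1.95 to 2.55 CPM in no tumor, 4.47 to 17.6 CPM in KPC and 3.75 to 6.43 CPM in KPC IL6KO. The part of erythroid RNA in the carriers' values was not tested. Slc25a39, which brings glutathione into mitochondria, spread widely in KPC, from 34.9 to 96.6 CPM, and was not called (log2 FC -0.28, SE 0.26). Without KPC mouse 3 it was called down (log2 FC -0.63). Its relative Slc25a40 fell (log2 FC -0.98, SE 0.26, edgeR FDR 0.00550). Of 11 genes of mitochondrial iron, heme and glutathione, 4 rose and 1 fell in KPC muscle, against 26.7% and 29% of all genes. The 4 were Alas2 and the glutathione genes Gclm, Gsr and Gclc, and among the glutathione genes Gclm, the modifier subunit of the rate-limiting enzyme of glutathione synthesis, rose most (log2 FC 2.40, SE 0.15, edgeR FDR 7.92e-07). Abcb10, a transporter of the inner membrane needed for heme synthesis, fell (log2 FC -1.06, SE 0.18, edgeR FDR 0.000242).

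**Figure D2:**
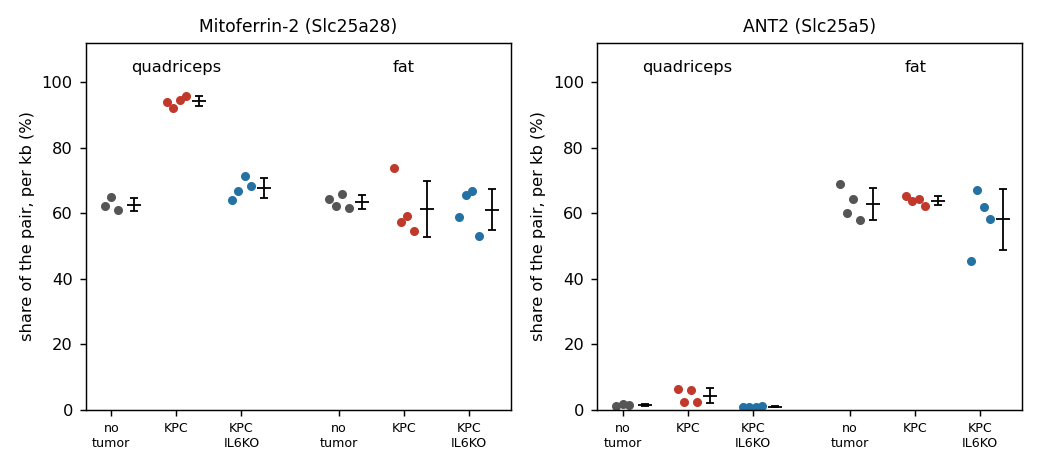
Share of the mitoferrin pair held by Slc25a28 (left) and of the ANT1 plus ANT2 pair held by Slc25a5 (right), from CPM per kb, in each library; points are mice and bars the mean ± SD. In quadriceps the mitoferrin-2 share of KPC mice, 92.2% to 95.8%, lies above all other mice, while in fat the groups overlap.

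Of the adenine nucleotide translocases, which exchange ATP for ADP across the inner membrane, ANT1 fell and ANT2 was not called. Slc25a4 measured 4409, 3909 and 3972 CPM in no tumor, 1431, 2396, 1735 and 2735 CPM in KPC and 4019, 4714, 4092 and 3889 CPM in KPC IL6KO. KPC mice lay below all others, a 1.98-fold fall (log2 FC -0.98, SE 0.19, edgeR FDR 0.000845). Slc25a5, the form found in proliferating cells, measured 37.7, 47.7 and 36.9 CPM in no tumor, 66.4, 40.9, 79.8 and 43.2 CPM in KPC and 26.7, 26.9, 27.2 and 30.7 CPM in KPC IL6KO. KPC and no tumor overlapped and the difference was not called (log2 FC 0.50, SE 0.21, edgeR FDR 0.0565), although leaving out no tumor mouse 2, KPC mouse 2 or KPC mouse 4 made it a call (log2 FC 0.61 to 0.63). KPC IL6KO mice were below both other groups, so KPC was 2.07-fold above KPC IL6KO (log2 FC 1.05, SE 0.20, edgeR FDR 0.000605). An annotated pseudogene is named after Slc25a5. The authors state that uniquely mapped reads were assigned, so reads shared with near-identical copies could have been left out. ANT2 made up 1.41% ± 0.267 (SD, n = 3) of the pair in no tumor muscle, 4.25% ± 2.25 (n = 4) in KPC and 0.952% ± 0.126 (n = 4) in KPC IL6KO, with KPC mice 1 and 3 near 6.2% and mice 2 and 4 near 2.3%.

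Slc25a3, which imports the phosphate that ATP synthase needs, measured 743, 688 and 704 CPM in no tumor, 601, 659, 875 and 732 CPM in KPC and 677, 796, 735 and 749 CPM in KPC IL6KO. Its groups overlapped throughout (log2 FC 0.010, SE 0.13, edgeR FDR 0.949). Of 10 genes of ATP, phosphate and creatine energy transfer, 3 fell and 0 rose in KPC muscle, against 29% and 26.7% of all genes. Among the 3 were Ckmt2, the mitochondrial creatine kinase of muscle (log2 FC -1.53, SE 0.39, edgeR FDR 0.00476), and Atp5o, a subunit of ATP synthase (-0.76 on the log2 scale). Of 17 genes that track mitochondrial content, 2 rose and 3 fell, against 26.7% and 29% of all genes. The median log2 FC of the 17 was -0.34. Those that rose were the outer membrane import proteins Tomm20 and Tomm40, and those that fell the respiratory chain subunits Ndufs1, Sdhb and Uqcrc1.

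The ATP-magnesium/phosphate carriers, which set the size of the matrix adenine nucleotide pool under control of calcium, ran lower or were not called. Slc25a23 stood at 30.5 ± 5.76 CPM in no tumor (SD, n = 3) and at 8.302 ± 3.71 CPM in KPC (SD, n = 4), with no overlap (log2 FC -1.88, SE 0.27, edgeR FDR 0.000103). Slc25a24, at 2.25 to 3.08 CPM in no tumor and 1.07 to 2.08 CPM in KPC, fell less (log2 FC -0.995, SE 0.25, edgeR FDR 0.00414). Slc25a25 measured 328, 304 and 291 CPM in no tumor, 247, 70.7, 66.7 and 154 CPM in KPC and 18.7, 76.4, 196 and 135 CPM in KPC IL6KO. Each tumor-bearing mouse of either group was below every no tumor mouse, the tumor groups spread widely, from 18.7 to 196 CPM in KPC IL6KO, and neither difference was called (log2 FC -1.20, SE 0.62, edgeR FDR 0.106 in KPC and log2 FC -1.53, SE 0.62, edgeR FDR 0.595 in KPC IL6KO). Slc25a25 in KPC became a call without KPC mouse 1 (log2 FC -1.67), without KPC IL6KO mouse 1 (-1.20) or with only the compared groups in the fit (-1.17).

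Carriers of other nucleotides and cofactors rose and fell. Slc25a33, a pyrimidine nucleotide carrier linked to mitochondrial DNA upkeep and growth signals, measured 20.9, 21.3 and 20.2 CPM in no tumor, 77.9, 42.98, 85.6 and 74.9 CPM in KPC and 14.5, 19.5, 13.9 and 23.1 CPM in KPC IL6KO. The rise was 3.38-fold, and KPC mouse 2, the lowest of its group, was still above all others (log2 FC 1.76, SE 0.24, edgeR FDR 6.80e-05). Its relative Slc25a36 was just under the fold threshold (log2 FC 0.58, SE 0.21, edgeR FDR 0.0259). It was called up by DESeq2, with RLE normalization, with the adipocyte covariate, and without KPC mouse 2 or 4 or no tumor mouse 1 (log2 FC 0.63 to 0.73). Slc25a42, which brings coenzyme A into the matrix, measured 75.7, 74.03 and 64.2 CPM in no tumor, 42.2, 37.2, 28.4 and 32.4 CPM in KPC and 68.3, 72.1, 83.6 and 56.4 CPM in KPC IL6KO. That was a 2.04-fold fall without overlap (log2 FC -1.03, SE 0.16, edgeR FDR 0.000138). Slc25a51, the carrier of NAD, measured 81.2, 87.8 and 80.8 CPM in no tumor, 91.5, 84.01, 79.9 and 75.03 CPM in KPC and 77.7, 84.8, 79.3 and 82.9 CPM in KPC IL6KO. It differed little between groups (log2 FC -0.012, SE 0.094, edgeR FDR 0.915).

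Smaller rises were called for Slc25a32, which carries folate or FAD (log2 FC 0.70, SE 0.17, edgeR FDR 0.00377), and for Slc25a17, a peroxisomal carrier of coenzyme A and related cofactors (log2 FC 0.62, SE 0.14, edgeR FDR 0.00183). The call for Slc25a32 was lost without KPC mouse 4 (log2 FC 0.58) and that for Slc25a17 without no tumor mouse 3 (0.58) or KPC mouse 3 (0.53). Slc25a26, the carrier of S-adenosylmethionine, lay between 20.04 and 28.9 CPM in every muscle library (log2 FC 0.012, SE 0.13). Slc25a16 was not called either (log2 FC 0.13, SE 0.19).

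Among amino acid carriers, the ornithine carrier and the branched-chain carrier were furthest apart. Slc25a15, which exchanges ornithine for citrulline, measured 18.1, 16.05 and 15.98 CPM in no tumor, 2.73, 4.84, 4.79 and 4.54 CPM in KPC and 15.8, 18.8, 14.9 and 16.2 CPM in KPC IL6KO. The 4 KPC mice lay between 2.73 and 4.84 CPM, below a floor of 14.9 CPM in all others (log2 FC -1.98, SE 0.18, edgeR FDR 4.96e-06). Slc25a44, the carrier of leucine, isoleucine and valine, measured 43.6, 46.7 and 45.9 CPM in no tumor, 179, 93.8, 123 and 114 CPM in KPC and 42.5, 45.8, 47.95 and 48.96 CPM in KPC IL6KO. Its rise in KPC was 2.81-fold and free of overlap (log2 FC 1.49, SE 0.18, edgeR FDR 3.29e-05). Of 6 measured genes of ornithine, branched-chain and glycine metabolism, 2 rose and 1 fell in KPC muscle, against 26.7% and 29% of all genes. Oat, ornithine aminotransferase, rose (log2 FC 0.88, SE 0.10, edgeR FDR 1.94e-05), as did Bckdha, a subunit of branched-chain ketoacid dehydrogenase (log2 FC 1.07, SE 0.14, edgeR FDR 4.28e-05), and Amt of the glycine cleavage system fell (log2 FC -1.39, SE 0.30, edgeR FDR 0.00141). Bcat2, the mitochondrial aminotransferase of branched-chain amino acids, was not called (-0.37 on the log2 scale).

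Slc25a22, a glutamate carrier, rose from 20.8 to 40.7 CPM in no tumor to 41.7 to 104 CPM in KPC (log2 FC 0.95, SE 0.34, edgeR FDR 0.0253). KPC mouse 4 was by far the highest, and the call was lost without it (log2 FC 0.59), as it was without no tumor mouse 2 (1.02) or mouse 3 (0.72). Slc25a12, the aspartate-glutamate carrier of muscle, measured 461, 423 and 441 CPM in no tumor, 323, 329, 350.0 and 339 CPM in KPC and 429.8, 513, 407 and 435 CPM in KPC IL6KO. All KPC mice were below all others, but at 1.32-fold the difference was under the fold threshold (log2 FC -0.40, SE 0.10, edgeR FDR 0.00457). The second aspartate-glutamate carrier, citrin (Slc25a13), was close to the limit of detection and measured 0.831, 0.843 and 0.205 CPM in no tumor, 0.200, 0.120, 0.278 and 0.602 CPM in KPC and 0.6499, 0.859, 0.566 and 0.617 CPM in KPC IL6KO. The groups overlapped and the difference was not called (log2 FC -1.16, SE 0.52, edgeR FDR 0.0657). It became a call down by the likelihood ratio test (log2 FC -1.13), with the adipocyte covariate (-1.63), without KPC mouse 4 (-1.74) or without no tumor mouse 3 (-1.49). Slc25a45 lay between 0.801 and 2.30 CPM, and its fall was only just past both thresholds (log2 FC -0.61, SE 0.25, edgeR FDR 0.0484). The call was lost without any single library other than KPC mice 2 and 3 (log2 FC -0.63 to -0.44). Slc25a29, a carrier of basic amino acids, was not called (log2 FC -0.39, SE 0.31).

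Carriers of citrate and dicarboxylates held 2 of the 3 largest falls. Slc25a10, which exchanges malate or succinate for phosphate, measured 17.7, 33.8 and 10.1 CPM in no tumor, 3.06, 3.24, 1.65 and 2.503 CPM in KPC and 10.8, 5.36, 4.58 and 4.24 CPM in KPC IL6KO. KPC mice were 1.65 to 3.24 CPM, a 7.899-fold fall (log2 FC -2.98, SE 0.43, edgeR FDR 9.40e-05). Slc25a1, which exports citrate, measured 29.2, 48.6 and 14.3 CPM in no tumor, 3.54, 13.1, 1.83 and 2.898 CPM in KPC and 13.4, 4.23, 4.33 and 5.26 CPM in KPC IL6KO. KPC lay below no tumor, though KPC mouse 2 came close to the lowest no tumor mouse (log2 FC -2.53, SE 0.66, edgeR FDR 0.00521). Both carriers work in lipid synthesis, and RNA of adipocytes varied between the muscles. The 5 adipocyte markers summed to 516, 1330 and 293 CPM in no tumor mice 1 to 3, to 469, 659, 169 and 121 CPM in KPC mice 1 to 4 and to 308, 137, 269 and 172 CPM in KPC IL6KO mice 1 to 4. No tumor mouse 2 and KPC mouse 2 were highest in their groups in the markers and in both carriers, as was KPC IL6KO mouse 1. With the log2 marker level as a covariate, an alternative chosen after seeing the data, both falls were called. The log2 FC was then -2.33 for Slc25a10 (edgeR FDR 0.000324) and -1.75 for Slc25a1 (edgeR FDR 0.00532). The part of adipocyte RNA in the values of both carriers was not tested.

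Slc25a35, a carrier without a settled substrate, measured 6.701, 9.11 and 5.69 CPM in no tumor, 0.724, 1.88, 0.687 and 1.13 CPM in KPC and 4.84, 5.96, 4.11 and 4.32 CPM in KPC IL6KO. It fell 6.51-fold in KPC and the groups did not overlap (log2 FC -2.70, SE 0.33, edgeR FDR 2.75e-05). Its close relative Slc25a34, also without a settled substrate, measured 32.9, 25.1 and 13.4 CPM in no tumor, 70.3, 52.7, 58.3 and 117 CPM in KPC and 26.5, 30.9, 52.2 and 19.4 CPM in KPC IL6KO. That one rose in the same mice (log2 FC 1.64, SE 0.40, edgeR FDR 0.00320), each KPC value lying above every no tumor value. Slc25a11, which exchanges oxoglutarate for malate, measured 308, 284 and 265 CPM in no tumor, 132, 179, 145 and 186 CPM in KPC and 269, 332, 267 and 274 CPM in KPC IL6KO. It fell 1.78-fold (log2 FC -0.83, SE 0.14, edgeR FDR 0.000245), and KPC lay apart from the rest. Of 13 genes of pyruvate, citrate and the malate-aspartate shuttle, 1 rose and 5 fell in KPC muscle, against 26.7% and 29% of all genes. Got1, the cytosolic aspartate aminotransferase, rose (log2 FC 1.31, SE 0.25, edgeR FDR 0.000763). Gpd1, glycerol-3-phosphate dehydrogenase of the other shuttle for reducing equivalents, fell most (log2 FC -2.51, SE 0.30, edgeR FDR 2.40e-05), with Gpd2, Idh1, Mdh1 and the citrate-cleaving enzyme Acly.

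Slc25a20, which exchanges acylcarnitine for carnitine and so admits fatty acids, measured 76.95, 75.1 and 63.9 CPM in no tumor, 72.7, 84.7, 107 and 141 CPM in KPC and 72.3, 76.4, 100.0 and 67.7 CPM in KPC IL6KO. KPC values reached higher but overlapped, and the difference missed the FDR threshold (log2 FC 0.49, SE 0.21, edgeR FDR 0.0572). It was a call without KPC mouse 1 (log2 FC 0.62). Of 5 other genes of the carnitine shuttle, 0 rose and 1 fell, against 26.7% and 29% of all genes. The gene that fell was Cpt1a (log2 FC -0.63, SE 0.20, edgeR FDR 0.0171), the form of the outer membrane enzyme that muscle uses less. Among relatives of the uncoupling proteins, Slc25a30 measured 3.53, 5.02 and 6.97 CPM in no tumor, 3.97, 6.18, 6.3003 and 3.75 CPM in KPC and 3.39, 2.98, 3.902 and 16.2 CPM in KPC IL6KO. KPC IL6KO mouse 4 was far above the rest, and no difference was called (log2 FC -0.018, SE 0.55, edgeR FDR 0.978). Slc25a27 and Slc25a14 were not called either (log2 FC 0.081, SE 0.17 and log2 FC 0.14, SE 0.25). Of 4 measured family members under other symbols, 2 rose and 0 fell in KPC muscle, against 26.7% and 29% of all genes. Those that rose were the uncoupling proteins Ucp3 (log2 FC 1.89, SE 0.34, edgeR FDR 0.000480) and Ucp2 (log2 FC 1.24, SE 0.20, edgeR FDR 0.000242).

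Slc25a46, which sits in the outer membrane and acts in mitochondrial fission, rose from 25.2 to 29.8 CPM to 45.8 to 86.4 CPM (log2 FC 1.16, SE 0.19, edgeR FDR 0.000195), and KPC IL6KO stayed at 27.002 to 32.1 CPM. Slc25a53, a carrier without a settled substrate, had 0.949 to 1.26 CPM in KPC against 0.461 to 0.803 CPM in no tumor (log2 FC 0.93, SE 0.36, edgeR FDR 0.0369). Its call was lost without no tumor mouse 1 or 3 or KPC mouse 1, 2 or 4 (log2 FC 0.80 to 0.94). Slc25a47 had a log2 FC of -0.54 (SE 0.41).

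**Figure D3:**
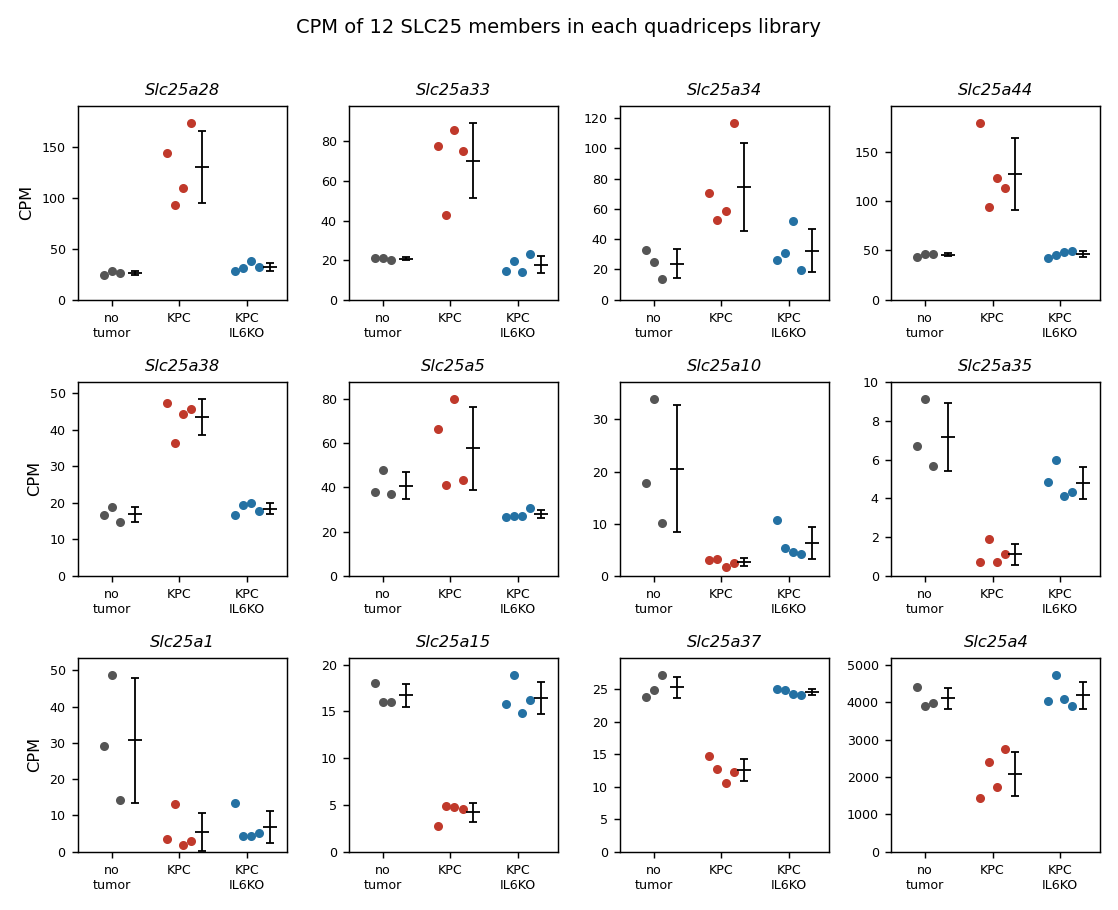
CPM of 12 carriers in each quadriceps library, with the mean ± SD beside the points of each group and every axis starting at 0. KPC mice stand apart from no tumor in each panel other than Slc25a5, and KPC IL6KO mice lie with no tumor in most panels and with KPC for Slc25a1.

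No carrier of KPC IL6KO quadriceps passed the test against no tumor. The quasi-likelihood test called 0 of 39 carriers up and 0 down relative to no tumor, as it called 0% of all genes in either direction, and the smallest edgeR FDR of a carrier was 0.289. At an unadjusted p of at most 0.05 there were 5 carriers, Slc25a1, Slc25a10, Slc25a5, Slc25a25 and Slc25a36, against 6.91% of all genes. By the edgeR likelihood ratio test 0 carriers were called up and 1 down, against 0.195% and 0.546% of genes, and by the DESeq2 Wald test 0 up and 1 down, against 0.234% and 0.514%. That carrier was Slc25a10 in both. It had a log2 FC of -1.73 (SE 0.41), with KPC IL6KO mouse 1 inside the range of no tumor. Slc25a1 had a log2 FC of -2.18 (SE 0.66, edgeR FDR 0.420), and all 4 mice were below the lowest no tumor mouse. With the adipocyte markers as a covariate these values were -0.89 for Slc25a10 and -0.82 for Slc25a1, and the part of adipocyte RNA was not tested. Values of KPC IL6KO and no tumor did not overlap for 1 carrier that was higher, Slc25a36, and 4 that were lower, Slc25a1, Slc25a5, Slc25a17 and Slc25a25, against 7.54% and 8.01% of all genes. The median log2 FC was -0.0030 over the carriers and 0.0030 over all genes. A p that misses the threshold does not show that levels were equal. No gene of the 6 partner and content lists, or of the family members under other symbols, was called.

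Compared directly, KPC was above KPC IL6KO for 10 carriers and below it for 13, against 26.4% and 27.3% of all genes. Values did not overlap for 10 higher and 12 lower carriers, against 31.2% and 30.8%. This comparison and that of KPC with no tumor share the KPC mice, so the values are given side by side. Slc25a28 was 2.01 above KPC IL6KO and 2.31 above no tumor on the log2 scale, Slc25a33 1.99 and 1.76, and Slc25a44 1.46 and 1.49. Slc25a15 was -1.96 and -1.98, Slc25a4 -1.01 and -0.98, and Slc25a37 -0.97 and -1.01. The carriers called in just 1 of these comparisons were Slc25a1 and Slc25a32, called against no tumor, and Slc25a5 and Slc25a13, called against KPC IL6KO. Slc25a1 did not differ by a called amount between the tumor groups (log2 FC -0.35, SE 0.61, edgeR FDR 0.633), and its difference became a call without KPC mouse 2 (log2 FC -1.30) or with the adipocyte markers as a covariate (log2 FC -0.93, edgeR FDR 0.0490). The call of Slc25a13 (log2 FC -1.17, SE 0.48, edgeR FDR 0.0461) was lost under 10 of 18 alternatives, among them the removal of any library other than no tumor mouse 3 and KPC mouse 4 (log2 FC -1.25 to -0.91). That of Slc25a24 (log2 FC -0.62, SE 0.23, edgeR FDR 0.0333) was lost without no tumor mouse 1, KPC mouse 2, 3 or 4 or KPC IL6KO mouse 1, 2 or 4 (log2 FC -0.61 to -0.51), and that of Slc25a10 (log2 FC -1.25, SE 0.40, edgeR FDR 0.0145) without KPC IL6KO mouse 1 (log2 FC -0.85). The remaining 20 calls held under every alternative run for them.

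In the fat pads, no carrier was called. Relative to no tumor, 0 of 47 carriers were called up and 0 down in KPC, and the same was true of KPC IL6KO against no tumor and of KPC against KPC IL6KO, where in each case 0% of all 16962 genes were called. With the larger spread in fat this does not show that levels were alike. At an unadjusted p of at most 0.05 there were 8 carriers in KPC against no tumor (12.2% of all genes), 3 in KPC IL6KO against no tumor (9.34%) and 3 in KPC against KPC IL6KO (6.26%). The likelihood ratio test called 1 carrier up and 0 down in KPC, against 1.58% and 0.855% of genes, 0 and 0 in KPC IL6KO, against 1.23% and 0%, and 0 and 0 between tumor groups, against 0.0413% and 0.348%. DESeq2 called 1 up and 0 down in KPC, against 2.15% and 1.3%, 0 and 0 in KPC IL6KO, against 1.66% and 0.0236%, and 1 and 0 between tumor groups, against 0.112% and 0.625%. The carrier called was Slc25a34 each time.

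In fat Slc25a34 measured 0.532, 0.484, 0.418 and 0.7904 CPM in no tumor, 15.97, 7.73, 3.34 and 4.07 CPM in KPC and 1.74, 1.44, 1.28 and 2.84 CPM in KPC IL6KO. The 3 groups did not overlap at all, with no tumor lowest and KPC highest. In KPC its fitted level was 13.9-fold that of no tumor (log2 FC 3.79, SE 0.57, edgeR FDR 0.0763), and in KPC IL6KO 3.26-fold (log2 FC 1.70, SE 0.53, edgeR FDR 0.397). KPC exceeded KPC IL6KO 4.25-fold (log2 FC 2.09, SE 0.53, edgeR FDR 0.558). Values higher without overlap were found for 2 carriers in KPC against no tumor (6.52% of genes), for 1 in KPC IL6KO against no tumor (1.52%) and for 1 in KPC against KPC IL6KO (0.637%), and Slc25a34 was in all 3 sets. In KPC against no tumor the FDR of Slc25a34 was 1.05e-05 by the edgeR likelihood ratio test and 7.38e-09 by the DESeq2 Wald test. Slc25a34 passed the FDR threshold also with only those groups in the fit (edgeR FDR 0.0383). With the adipocyte or the epididymis markers as a covariate it passed too (edgeR FDR 0.0337 and 0.0269). It was not called with RLE normalization, the replicate block or the other filters, or in any of the 12 fits without 1 library. Neutrophil markers (5 measured) also stood higher in KPC fat, at 22.96 to 56.03 CPM against 3.09 to 6.57 CPM in no tumor and 4.39 to 58.9 CPM in KPC IL6KO, and their part was not tested.

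The other carrier higher without overlap in KPC fat was Slc25a24, at 15.2, 25.8, 10.1 and 26.3 CPM in no tumor, 57.03, 43.9, 46.9 and 122 CPM in KPC and 157, 16.4, 24.7 and 76.6 CPM in KPC IL6KO. KPC values were all above no tumor and KPC IL6KO values spread across both (log2 FC 1.80, SE 0.66, edgeR FDR 0.331). It was called with the epididymis markers as a covariate (log2 FC 2.06, edgeR FDR 0.0349). Macrophage markers (5 measured) summed to 189 to 772 CPM in no tumor, 839 to 1281 CPM in KPC and 314 to 2179 CPM in KPC IL6KO, and mesothelium markers (4 measured) to 109 to 272, 222 to 637 and 193 to 1337 CPM, and their part in these values was not tested. Slc25a27, a relative of the uncoupling proteins, measured 8.72, 7.92, 10.1 and 6.91 CPM in no tumor, 14.6, 13.7, 9.5002 and 11.97 CPM in KPC and 11.95, 14.3, 7.37 and 10.1 CPM in KPC IL6KO. Its KPC values overlapped no tumor in 1 mouse (log2 FC 0.57, SE 0.25, edgeR FDR 0.404). Slc25a45 measured 19.5, 12.4, 14.6 and 9.58 CPM in no tumor, 20.6, 18.6, 15.4 and 16.7 CPM in KPC and 33.8, 21.7, 10.8 and 21.3 CPM in KPC IL6KO, with overlap throughout (log2 FC 0.34, SE 0.32, edgeR FDR 0.695).

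Lower values without overlap were found in KPC against no tumor for 3 carriers (4.39% of genes), Slc25a35, Slc25a10 and Slc25a1, for 0 in KPC IL6KO against no tumor (0.489%) and for 2 in KPC against KPC IL6KO (3.69%), Slc25a23 among them. Slc25a35 measured 36.8, 50.7, 39.6 and 39.4 CPM in no tumor, 10.6, 18.6, 20.8 and 22.5 CPM in KPC and 9.01, 29.7, 48.3 and 22.7 CPM in KPC IL6KO. KPC lay below no tumor and KPC IL6KO ranged over both (log2 FC -1.20, SE 0.42, edgeR FDR 0.306). Slc25a10 measured 121, 316, 129 and 147 CPM in no tumor, 54.6, 86.2, 102 and 91.4 CPM in KPC and 72.3, 109.5, 178 and 89.8 CPM in KPC IL6KO. The gap to no tumor was 2.14-fold and did not pass the FDR threshold (log2 FC -1.10, SE 0.37, edgeR FDR 0.297). Slc25a1 measured 115, 233, 94.6 and 100.1 CPM in no tumor, 73.5, 78.8, 81.6 and 69.6 CPM in KPC and 86.3, 137, 134 and 81.2 CPM in KPC IL6KO. Here too the KPC mice lay below every no tumor mouse, without a call (log2 FC -0.84, SE 0.29, edgeR FDR 0.310), and they overlapped KPC IL6KO.

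No tumor mouse 6, with the highest adipocyte marker sum (17184 CPM, against 916 to 10157 CPM in the other pads), was also the highest pad in Slc25a1 and Slc25a10. With the adipocyte markers as a covariate the log2 FC in KPC was -0.87 for Slc25a10 and -0.68 for Slc25a1. The part of adipocyte RNA in these values was not tested. Slc25a48 measured 0.941, 3.29, 3.19 and 8.81 CPM in no tumor, 0.934, 0.0859, 1.82 and 2.18 CPM in KPC and 2.16, 0.137, 4.84 and 3.82 CPM in KPC IL6KO. Slc25a33 measured 12.3, 17.7, 15.5 and 26.7 CPM in no tumor, 9.29, 11.3, 12.7 and 9.04 CPM in KPC and 5.96, 12.9, 13.7 and 11.1 CPM in KPC IL6KO. Neither was called (log2 FC -1.69, SE 1.05, edgeR FDR 0.569 for Slc25a48 and log2 FC -0.77, SE 0.31, edgeR FDR 0.363 for Slc25a33).

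**Figure D4:**
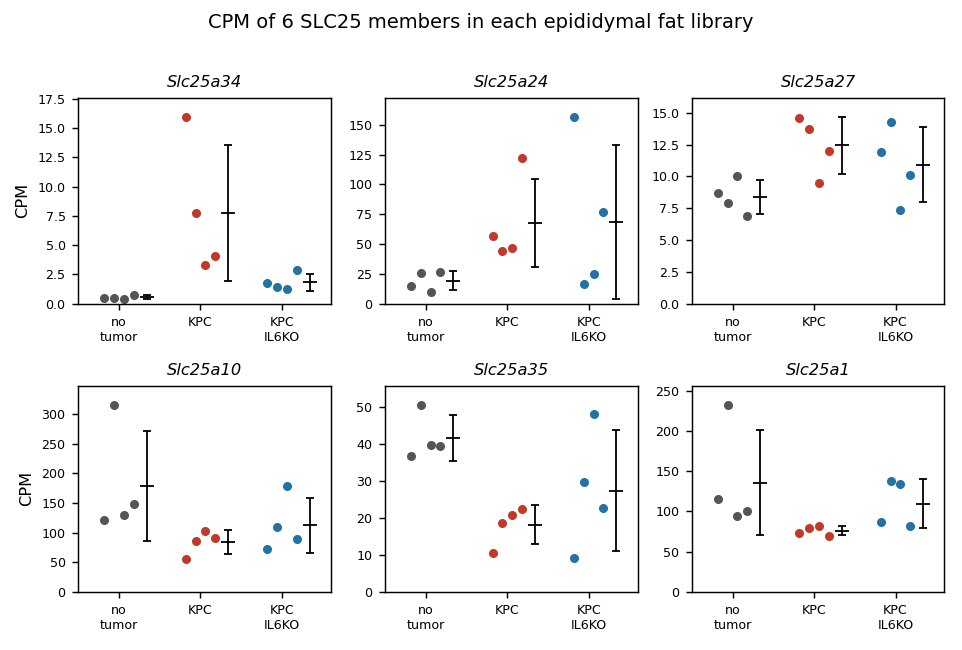
CPM of 6 carriers in each epididymal fat library, with the mean ± SD beside each group and axes starting at 0. Slc25a34 separates the 3 groups (0.418 to 0.790, 3.34 to 15.97 and 1.28 to 2.84 CPM), whereas the panels of Slc25a10 and Slc25a1 show no tumor mouse 6 far above the rest.

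Slc25a28, Slc25a38 and Slc25a44, which rose in muscle, were not called in fat. Slc25a28 measured 36.8, 38.2, 33.5 and 27.03 CPM in no tumor, 60.1, 36.7, 31.03 and 29.1 CPM in KPC and 51.3, 37.8, 37.5 and 40.9 CPM in KPC IL6KO. The groups overlapped (log2 FC 0.21, SE 0.23, edgeR FDR 0.724). Slc25a37 measured 32.7, 37.4, 27.9 and 27.3 CPM in no tumor, 34.1, 43.7, 34.3 and 39.2 CPM in KPC and 57.5, 32.1, 29.8 and 58.1 CPM in KPC IL6KO, also with overlap (log2 FC 0.27, SE 0.24, edgeR FDR 0.679). Slc25a38 measured 23.001, 17.1, 20.97 and 16.2 CPM in no tumor, 14.5, 16.3, 14.2 and 12.5 CPM in KPC and 13.9, 24.4, 17.8 and 17.6 CPM in KPC IL6KO, somewhat lower in KPC without a call (log2 FC -0.43, SE 0.21, edgeR FDR 0.447). Slc25a44 measured 65.4, 80.1, 51.8 and 47.8 CPM in no tumor, 49.99, 44.8, 45.8 and 52.9 CPM in KPC and 54.2, 59.8, 60.5 and 46.6 CPM in KPC IL6KO, with a log2 FC of -0.34. The mitoferrin-2 share of the pair was 63.5% ± 2.07 in no tumor, 61.2% ± 8.65 in KPC and 61.1% ± 6.35 in KPC IL6KO (SD, n = 4 each).

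ANT1 and ANT2 were not called in fat either. Slc25a4 measured 186, 286, 185 and 229 CPM in no tumor, 246, 214, 176 and 220.0 CPM in KPC and 383, 202, 237 and 265 CPM in KPC IL6KO. Slc25a5 measured 289.5, 302, 235 and 221 CPM in no tumor, 323, 263, 222 and 252 CPM in KPC and 222, 288, 267 and 257 CPM in KPC IL6KO. The groups overlapped for both. The ANT2 share was 62.8% ± 4.88 in no tumor, 63.8% ± 1.35 in KPC and 58.1% ± 9.28 in KPC IL6KO (SD, n = 4 each), and KPC IL6KO mouse 5, at 45.3%, was the lowest. The muscle fiber markers summed to 7.97 to 10.1 CPM in KPC pads, 15.4 to 274 CPM in no tumor and 92.9 to 2347 CPM in KPC IL6KO, and their part in Slc25a4, the main carrier of muscle, was not tested. Slc25a3 measured 287, 302, 249.005 and 231 CPM in no tumor, 339.9, 285, 235 and 265 CPM in KPC and 286, 275, 282 and 298 CPM in KPC IL6KO, with overlap of all groups. Slc25a51 measured 120.0, 159.7, 113 and 134 CPM in no tumor, 272, 145, 109.7 and 134 CPM in KPC and 100.9, 119, 152 and 149.6 CPM in KPC IL6KO. KPC mouse 5 stood above the rest in Slc25a51 and no group differed by a call. Slc25a20 measured 39.6, 59.6, 26.2 and 32.5 CPM in no tumor, 66.8, 39.2, 28.6 and 35.1 CPM in KPC and 46.8, 41.97, 36.5 and 39.003 CPM in KPC IL6KO. Slc25a42 measured 32.5, 32.5, 24.3 and 17.2 CPM in no tumor, 30.5, 24.6, 20.1 and 18.8 CPM in KPC and 15.2, 42.1, 31.05 and 23.7 CPM in KPC IL6KO. Both overlapped between all groups.

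Among the no tumor and KPC IL6KO pads, some carriers were highest where the epididymis markers were, whose sum was highest in KPC IL6KO mouse 6, no tumor mouse 5 and no tumor mouse 7. Slc25a11 measured 199.6, 84.3, 142 and 64.04 CPM in no tumor, 93.5, 126, 102 and 98.6 CPM in KPC and 78.1, 169, 60.9 and 77.3 CPM in KPC IL6KO. Slc25a13 measured 40.03, 8.61, 36.3 and 19.3 CPM in no tumor, 24.2, 30.4, 26.7 and 36.98 CPM in KPC and 16.5, 43.9, 19.9 and 17.6 CPM in KPC IL6KO. In both, the highest no tumor pads were mice 5 and 7 and the highest KPC IL6KO pad was mouse 6. Slc25a47 had the same high pads, at 40.2 and 39.3 CPM in no tumor and 54.2 CPM in KPC IL6KO, against 3.98 to 8.13 CPM in the other pads of those groups, and Slc25a21, a carrier of oxodicarboxylates, read 17.6, 14.1 and 13.7 CPM in these 3 pads against 1.28 to 5.50 CPM in the other 5. Slc25a25 measured 65.2, 36.6, 37.3 and 30.02 CPM in no tumor, 44.2, 29.2, 25.5 and 22.5 CPM in KPC and 19.98, 54.5, 33.8 and 32.9 CPM in KPC IL6KO and Slc25a30 41.1, 17.4, 34.1 and 15.9 CPM in no tumor, 39.1, 25.2, 25.4 and 27.6 CPM in KPC and 28.6, 48.04, 20.7 and 23.1 CPM in KPC IL6KO. These too were highest in no tumor mouse 5 and KPC IL6KO mouse 6. In the KPC pads, mice 5 to 8, the epididymis sum was 38959, 59661, 41221 and 39769 CPM. Slc25a11 and Slc25a21 were highest in KPC mouse 6, as the sum was, Slc25a21 with 16.2 CPM against 9.69 to 11.3 CPM in the other KPC pads. Slc25a47, at 13.6, 15.1, 19.8 and 11.2 CPM, was highest in KPC mouse 7, Slc25a25 and Slc25a30 in mouse 5 and Slc25a13 in mouse 8, so these 4 did not follow the sum within KPC. Slc25a12 measured 32.3, 20.1, 28.7 and 32.6 CPM in no tumor, 34.7, 26.98, 22.8 and 27.3 CPM in KPC and 30.3, 26.9, 28.5 and 40.7 CPM in KPC IL6KO and was not highest in these pads in any group. The part of the epididymis in these values was not tested.

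Of the carriers measured in fat alone, 5 shared a highest pad. Slc25a31, the translocase ANT4 of male germ cells, was highest in no tumor mouse 8, at 9.501 CPM, as were Slc25a2 (7.26 CPM), Slc25a41 (1.82 CPM), Slc25a48 (8.81 CPM) and Slc25a54 (4.38 CPM). That pad also had the highest sum of 6 testis germ cell markers, 1750 CPM against 2.90 to 909 CPM in the others, a list chosen after the values were seen. Slc25a18, the second glutamate carrier, and Slc25a43 stayed under 2 CPM in every pad. The median log2 FC over the 47 carriers was -0.18 in KPC and -0.089 in KPC IL6KO against no tumor, with -0.10 and -0.033 over all genes. No gene of the partner lists was called in fat.

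The difference between the tissues was then tested over the 12599 genes in both tables, with all 23 libraries in 1 fit that assumes 1 spread for both tissues. For KPC against no tumor, the change differed between muscle and fat at an edgeR FDR of at most 0.05 for 18 of 39 carriers, against 38.6% of all genes. For KPC IL6KO against no tumor it differed for 0 carriers and 0% of genes, and for KPC against KPC IL6KO for 14 carriers, against 33.3%. Tissue cannot be told apart from the separate sets of mice and sequencing. In limma voom with a weight for each tissue, added after seeing the data, 17 and 16 carriers passed, against 38.7% and 32.4% of all genes. Of these carriers, 16 and 12 were among those 18 and 14.

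Differences are given as muscle minus fat on the log2 scale, and come from the joint fit. The largest in the upward direction were Slc25a33 (difference 2.42, SE 0.41, edgeR FDR 0.000181), Slc25a28 (difference 1.98, SE 0.31, edgeR FDR 6.99e-05), Slc25a44 (difference 1.71, SE 0.25, edgeR FDR 3.57e-05) and Slc25a38 (difference 1.67, SE 0.22, edgeR FDR 1.83e-05). Slc25a33 rose in muscle and was lower, without a call, in fat. Downward differences included Slc25a24 (difference -2.89, SE 0.76, edgeR FDR 0.00594), which fell in muscle and had a positive log2 FC without a call in fat, Slc25a15 (difference -2.28, SE 0.33, edgeR FDR 3.77e-05) and Slc25a37 (difference -1.40, SE 0.26, edgeR FDR 0.000464). Slc25a34 was higher in KPC in both tissues, with a larger value in fat (difference -2.23, SE 0.65, edgeR FDR 0.0110), but this difference did not pass in limma voom (adjusted p 0.218). Slc25a10 and Slc25a35 were lower in KPC in both tissues, and more so in muscle (difference -1.998, SE 0.59, edgeR FDR 0.0122 and difference -1.61, SE 0.57, edgeR FDR 0.0313). Slc25a4 had a difference of -1.04 (edgeR FDR 0.0261), and lost it without no tumor muscle mouse 1, KPC muscle mouse 1 or 3, or no tumor fat mouse 5. Slc25a35 lost its difference without no tumor muscle mouse 2, KPC muscle mouse 1 or 3, no tumor fat mouse 5 or KPC fat mouse 7 or 8 (edgeR FDR 0.0536 to 0.0884), and Slc25a10 without no tumor muscle mouse 2 (edgeR FDR 0.0677).

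**Figure D5:**
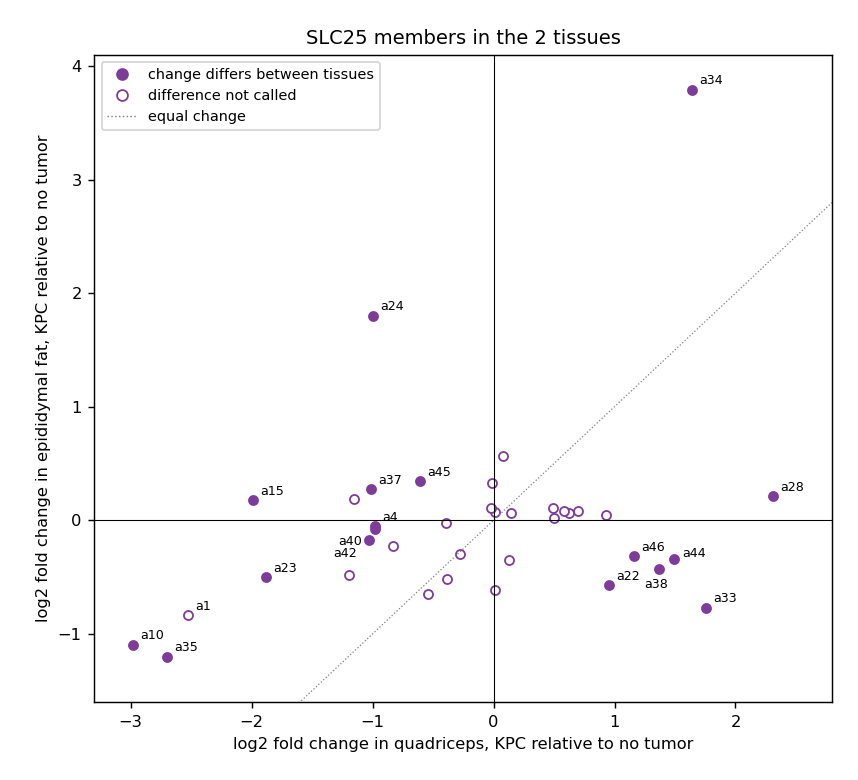
Log2 FC of KPC relative to no tumor in quadriceps (horizontal) and epididymal fat (vertical) for 38 of the 39 carriers in both tables, with filled points where the change differed between tissues in the joint edgeR fit and labels without the prefix Slc25. Slc25a28, Slc25a33, Slc25a44 and Slc25a38 lie far right near or below 0 in fat, Slc25a15 far left near 0, and Slc25a34 high in both.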

How the data were processed

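Bulk RNA-seq libraries were made from quadriceps (11) and epididymal fat (12). The authors aligned reads to mm10 with STAR and counted them per gene with featureCounts (Subread) 1.5.1; the deposited values are raw counts per gene, 1 table per tissue. Their processing notes also name FastQC and edgeR 3.12.1. The authors left out a muscle library of the no tumor group, which was not used here. Each library came from another mouse. The statements on library kit differ between the sources, and RNA quality was not analysed here.

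From the counts, each tissue was fitted with its 3 groups together in edgeR 4.0.16 (R 4.3.3): filterByExpr, which removed no gene, TMM normalization, the quasi-likelihood test, Benjamini-Hochberg adjustment over the whole table, and a call at an FDR of at most 0.05 with an FC of at least 1.5. CPM used TMM-normalized library sizes. Lengths were the summed exons of GENCODE M21. Changes in muscle and fat were compared by an interaction term over the 12599 genes in both tables. The fitting steps were also run on counts simulated with known changes from the spread fitted here. Such a run does not show that the fit suits these data. Alternatives were DESeq2 1.42.0, the edgeR likelihood ratio test, RLE normalization, other filters, only the compared groups, a replicate block, marker covariates, limma 3.58.1 voom and leaving out each library. Libraries of a group differed by more than counting noise (chi-square per degree of freedom of at least 28.9).

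Every carrier entered the counts; 1 carrier, 1 partner gene and the full genotype of the tumor line's source are not reported here. Values per library were given for 18 other carriers chosen by role and, per tissue, for the 5 with the largest rise and the 5 with the largest fall in KPC relative to no tumor among carriers whose mean log2 CPM reached 1. The carriers, lists and tests were chosen with earlier results of these data known. Promoters came from RefSeq (GRCm38.p6). Figures were drawn with matplotlib 3.10.9 in Python 3.11.15.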

Additional observations from a re-analysis of the deposited data

Results flagged for a closer look

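In 12 of 119 groups of 4 mice, the highest or lowest value of a carrier stood apart from the other 3 by more of the group's range than Dixon's 95% limit for 4 values allows; chance flags about 1 in 20 groups, here 5.95. Of these, 11 are given. In muscle they were Slc25a1 in KPC mouse 2 (13.1 CPM) and KPC IL6KO mouse 1 (13.4 CPM), the mice with most adipocyte marker RNA in their groups. Slc25a5 (30.7 CPM) and Slc25a30 (16.2 CPM) stood apart in KPC IL6KO mouse 4, Slc25a11 in KPC IL6KO mouse 2 (332 CPM), and Slc25a15 on the low side in KPC mouse 1 (2.73 CPM). In fat, no tumor mouse 6, the pad with most adipocyte marker RNA, stood apart in Slc25a1 (233 CPM) and Slc25a10 (316 CPM). KPC IL6KO mouse 6, the pad with most epididymis marker RNA, stood apart in Slc25a11 (169 CPM) and Slc25a13 (43.9 CPM), and KPC mouse 8 in Slc25a24 (122 CPM).

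The change of KPC relative to no tumor differed between muscle and fat, by the interaction test, for 18 carriers, of which 17 are given here with the muscle minus the fat log2 FC. It was more positive in muscle for Slc25a33 (2.42), Slc25a28 (1.98), Slc25a44 (1.71), Slc25a38 (1.67), Slc25a22 (1.41) and Slc25a46 (1.37). It was more negative for Slc25a24 (-2.89), Slc25a15 (-2.28), Slc25a34 (-2.23), Slc25a10 (-1.998), Slc25a35 (-1.61), Slc25a23 (-1.49), Slc25a37 (-1.40), Slc25a45 (-1.07), Slc25a4 (-1.04), Slc25a40 (-1.01) and Slc25a42 (-0.97). Of these differences, that of Slc25a45 was lost under 16 alternatives, that of Slc25a42 under 9, both including RLE normalization, that of Slc25a22 under 8, limma voom and 7 fits without a library, that of Slc25a35 under 6 and that of Slc25a4 under 4. Those of Slc25a10 and Slc25a40 were lost under 1 fit without a library each, and that of Slc25a34 under limma voom.

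For KPC relative to KPC IL6KO the difference passed for 14 carriers. The positive ones were Slc25a28 (1.95), Slc25a33 (1.86), Slc25a44 (1.504), Slc25a22 (1.46), Slc25a38 (1.44), Slc25a46 (1.05), Slc25a5 (0.86) and Slc25a17 (0.77). The negative ones were Slc25a15 (-2.03), Slc25a35 (-1.66), Slc25a23 (-1.25), Slc25a11 (-1.11), Slc25a40 (-1.04) and Slc25a37 (-0.89). The difference of Slc25a11 was lost under 12 alternatives, that of Slc25a22 under 6, that of Slc25a35 under 3 and that of Slc25a5 under limma voom. Both sets share the KPC mice, and tissue cannot be told apart from the separate mice and sequencing.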

How the results depend on the processing

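Of the carriers called in muscle, 7 to 11 rose and 12 to 14 fell in KPC relative to no tumor with 1 library left out, against 10 and 13 with all, and 10 and 10 to 13 differed from KPC IL6KO. The carriers whose change differed between tissues numbered 13 to 21 and 11 to 17. The muscle median log2 FC in KPC, -0.018 with all libraries, ran from -0.21 to -0.019 with 1 left out. Over 8 other settings it ran from -0.17, with the replicate block, to 0.020, and was -0.12 with the adipocyte covariate. With the replicate block 9 carriers rose and 13 fell in KPC muscle, 0 and 0 in KPC IL6KO, and 0 and 0 in each comparison in fat; Slc25a36 (log2 FC 0.61, edgeR FDR 0.0262) and Slc25a47 (-0.85, edgeR FDR 0.0433) were then called in KPC muscle. DESeq2 and the likelihood ratio test each called 1 carrier down in KPC IL6KO muscle. In fat, DESeq2, the likelihood ratio test, the fit of only the compared groups and the adipocyte covariate each called 1 carrier up in KPC, and the epididymis covariate 2. DESeq2 also called 1 up in KPC relative to KPC IL6KO. The fat median in KPC was -0.044 with at least 10 counts required in every library. The causes of these shifts were not tested. Over 6128 values of single carriers under alternatives, 5690 kept direction and side of the threshold, 292 without a call changed sign, 31 gained and 115 lost a call and 0 with a call changed sign. The spread between pads limits what could be detected in fat. Same-numbered mice correlated at -0.155 to 0.265 in muscle and -0.539 to 0.65 in fat after removal of group means. With no pairs of other numbers beside them, these values cannot decide whether the replicate numbers pair mice. The main fit used no pairing.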
